A study of Homo sapiens with 13 samples.

Results

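The genes described here are 63 genes of mitosis and chromosome segregation, followed in 3 myeloma cell lines in which a hairpin RNA against the transcription factor IRF4 was switched on. They were chosen by symbol and not by their values: the CENP, KIF, BUB, AURK, PLK, NEK, SMC, NCAP, STAG, MAD2L and ANAPC families, cyclins A and B, the CDC20, CDC25 and CDC27 names, and TOP2A, TTK, CDK1, RAD21, BIRC5, UBE2C, TPX2, MKI67, PTTG1, ESPL1, CKS1B and CKS2. The rule matched 65 symbols on the array, of which 63 had a cDNA feature with a value on 7 or more of the 13 arrays, out of 3841 named genes that met this condition. CCNA1 and SMC2 were on the array but did not meet it. The 63 genes rested on 125 features, 34 genes on 2 or more and 29 on 1, and 35 genes had a value on every array. PTTG1 and ESPL1 are not analysed here.

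Each of the 13 Lymphochip spotted cDNA arrays compared a culture with an IRF4 hairpin, labelled with Cy5, with a culture of the same line and day that carried a hairpin against luciferase (shluc), labelled with Cy3, so a log2 ratio below 0 stands for less mRNA under the IRF4 hairpin. The log base of the deposited ratios was taken as 2 from their range, and folds and percentages of control rest on that. Plasma cells, the antibody-secreting cells from which myeloma arises, depend on the transcription factor IRF4. The KMS12 line came in series 1332, 1332b and 2046, named after the hairpin constructs shi_1332, shi_1332b and shi_2046, each with 1 untreated array, 1 array early after induction (day 2 or 3) and 1 later (day 4 or 5). Induction was with 20 ng/ml doxycycline, which switches the hairpin on. The groups are thus KMS12 uninduced (3 arrays), days 2-3 (3), days 4-5 (3) and day 7 (1). Series 1332 was sampled at days 3 and 5 and the others at days 2 and 4, so day and series cannot be told apart. The day 7 array belongs to series 1332. The H929 line had 2 arrays called repeats and the SKMM1 line 1, all with shi_2046 at day 4. Neither of these lines had an uninduced array, so their ratios before induction are not known. No array swapped the dyes, so a dye effect particular to a gene stays in each ratio against 0 and cancels in a difference between arrays. All groups shared the luciferase control, and no label says that repeats came from separate cultures, so a p-value here reflects the variation among arrays. Between the H929 repeats part or all of it may be technical. Within a KMS12 group it also holds differences between the series, and in the induced windows between days.

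Mitosis is driven by CDK1 bound to cyclin A or B and is executed by kinases of the Aurora, Polo-like and NEK families. Chromosomes are held together by cohesin, folded by condensin and topoisomerase II, captured at the centromere by the kinetochore, and moved by kinesin motors along the spindle. The spindle checkpoint, with BUB1, BUB1B, BUB3, TTK and MAD2L1, keeps the anaphase-promoting complex (APC/C) and its partner CDC20 in check until every chromosome is attached. Many of these genes are transcribed late in the cell cycle, through promoters that hold CCAAT boxes, bound by NF-Y, and the cell cycle homology region TTTGAA, bound by the DREAM and MuvB complexes. In RNA of a whole culture, fewer cells in mitosis and less mRNA in each cell cannot be told apart.

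Promoters of 6 of these genes are shown because each holds both motifs, 4 of them from genes whose ratios were low in KMS12 at days 2-3 and 2 from genes whose ratios were not. The 200 bases before the first listed RefSeq start are given 5′ to 3′ on the gene's strand (GRCh38.p14), with CCAAT or its reverse complement ATTGG, and TTTGAA or its reverse complement TTCAAA, in capitals. The genes were picked with their values known, among those whose window holds both motifs. TOP2A lies at chr17:40417897-40418096 on the minus strand. The others lie on the plus strand, CCNB2 at chr15:59104946-59105145, KIF23 at chr15:69414149-69414348, CKS2 at chr9:89310995-89311194, PLK1 at chr16:23678689-23678888 and CDC20 at chr1:43358781-43358980.
TOP2A: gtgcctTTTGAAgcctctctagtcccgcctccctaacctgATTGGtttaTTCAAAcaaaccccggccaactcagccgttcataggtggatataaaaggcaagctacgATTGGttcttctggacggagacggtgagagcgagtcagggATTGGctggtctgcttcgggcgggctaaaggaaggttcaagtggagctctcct
CCNB2: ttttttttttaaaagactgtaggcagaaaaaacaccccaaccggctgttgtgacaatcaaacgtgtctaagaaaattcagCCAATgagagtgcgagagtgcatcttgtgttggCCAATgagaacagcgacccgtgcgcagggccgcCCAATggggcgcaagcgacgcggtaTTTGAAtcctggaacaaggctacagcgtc
KIF23: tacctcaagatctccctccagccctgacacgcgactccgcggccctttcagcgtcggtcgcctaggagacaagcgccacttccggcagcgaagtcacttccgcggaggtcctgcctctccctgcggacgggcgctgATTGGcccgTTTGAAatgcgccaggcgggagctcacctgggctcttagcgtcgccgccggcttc
CKS2: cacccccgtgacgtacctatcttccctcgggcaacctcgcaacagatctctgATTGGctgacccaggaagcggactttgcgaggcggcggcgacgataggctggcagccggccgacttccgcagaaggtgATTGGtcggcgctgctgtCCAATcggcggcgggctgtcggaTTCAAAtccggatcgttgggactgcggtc
PLK1: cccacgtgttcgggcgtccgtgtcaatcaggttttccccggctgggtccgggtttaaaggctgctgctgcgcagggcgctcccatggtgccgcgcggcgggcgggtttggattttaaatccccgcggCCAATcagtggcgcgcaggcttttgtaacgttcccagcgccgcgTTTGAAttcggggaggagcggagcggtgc
CDC20: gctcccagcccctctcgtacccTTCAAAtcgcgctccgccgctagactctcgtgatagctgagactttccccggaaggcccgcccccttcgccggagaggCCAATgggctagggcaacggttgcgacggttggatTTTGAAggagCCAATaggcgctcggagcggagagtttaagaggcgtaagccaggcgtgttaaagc
In KMS12 at days 2-3 the log2 ratio of the first 4 genes was lower than on the uninduced arrays, with differences of -1.67 for TOP2A, -0.98 for CCNB2, -0.86 for KIF23 and -1.04 for CKS2, while PLK1 and CDC20 stood 0.30 and 0.22 above. None of these differences passed the test given further on. CCNB2 holds 3 CCAAT matches, whose first bases lie 120, 87 and 54 bases before the start, followed by TTTGAA at 29. PLK1 has 1 CCAAT match at 73 and TTTGAA at the same place as CCNB2, 29 bases before the start. In CKS2 the 3 CCAAT matches at 148, 70 and 52 are followed by TTCAAA at 29. No CCAAT match overlaps a TTTGAA match in these windows.

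Of the 63 genes, 53 were found in the RefSeq promoter table, and 250 bases before the start were searched on both strands. CCAAT was present in 32 of 53 (60.4%), against 33.0% of all 27305 genes of the table, and TTTGAA in 15 of 53 (28.3%), against 13.6%. Both were present in 12 of 53 (22.6%), against 4.85% of all genes. Among the members that were lower at days 2-3 at an unadjusted p under 0.05, 15 of 20 (75%) held CCAAT and 7 of 20 (35.0%) TTTGAA. Among the other members tested there, the counts were 16 of 29 (55.2%) and 8 of 29 (27.6%). These shares are descriptions of letters in a window and were not tested, and the genes that were not low held the motifs too.

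IRF4 itself was lower on all 10 induced arrays, which checks the labels. Its mRNA stood at 125%, 110% and 128% of the luciferase culture on the uninduced arrays of series 1332, 1332b and 2046, at 42.5%, 28.2% and 54.0% at days 2-3, and at 62.2%, 55.5% and 60.3% at days 4-5. Day 7 gave 59.9%, the H929 repeats 28% and 24.5%, and SKMM1 23.5%. The number of features with a value ran from 7140 to 14228 of 15246 per array. Ratios give no level, so the labelled cell type cannot be checked by how much of a marker the cells held. Beside the results in KMS12, the medians of marker lists moved too. At days 2-3 against uninduced, 10 plasma cell genes had a median log2 difference of -0.49 (8 below 0), 9 B cell markers 0.41 (8 above), 7 T cell markers 0.28 (6 above), 5 erythroid and stromal markers 0.54 (5 above) and 3 myeloid markers -0.46 (1 above), and limma called 0 of them at an adjusted p under 0.05. Their part in the results on mitotic genes was not tested. Before induction the member median was -0.004, -0.036 and 0.25 in series 1332, 1332b and 2046, so the series 2046 uninduced array stood above the others. Against 0, 18 of 61 members lay below and 43 above on the uninduced arrays, with 2 lower (6.11% of all genes) and 1 higher (2.17%) at an unadjusted p under 0.05. At days 2-3 the series 2046 array stood apart again, with the smallest loss of IRF4.

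At days 2-3 in KMS12 most mitotic genes were lower than before induction, but no gene passed the test over all genes. The median member differed by -0.43 on the log2 scale, with 45 of 59 tested members below 0, against a median of 0.02 and 48.7% below 0 among all 5980 genes tested. Counts of all genes in these tests take each feature without a gene symbol as 1 gene. Limma called 0 of 59 members and 0 of 5980 genes (0%) at an adjusted p under 0.05. At an unadjusted p under 0.05, 23 members were lower and 1 was higher, which is 39.0% and 1.69% of the members, against 15.4% and 7.07% of all genes. The lowest adjusted p of a member was 0.0889, and 7 members had one under 0.1 as lower and 0 as higher, against 4.85% and 1.09% of all genes. Whether the groups overlapped is a looser description, met by more of all genes and without a test. By it, 15 of 47 members with all 6 values (31.9%) had every array at days 2-3 below every uninduced array, against 21.9% of all genes. CDC25A and UBE2C had every array above (4.26% of the members, against 8.81% of all genes).

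**Figure D1:**
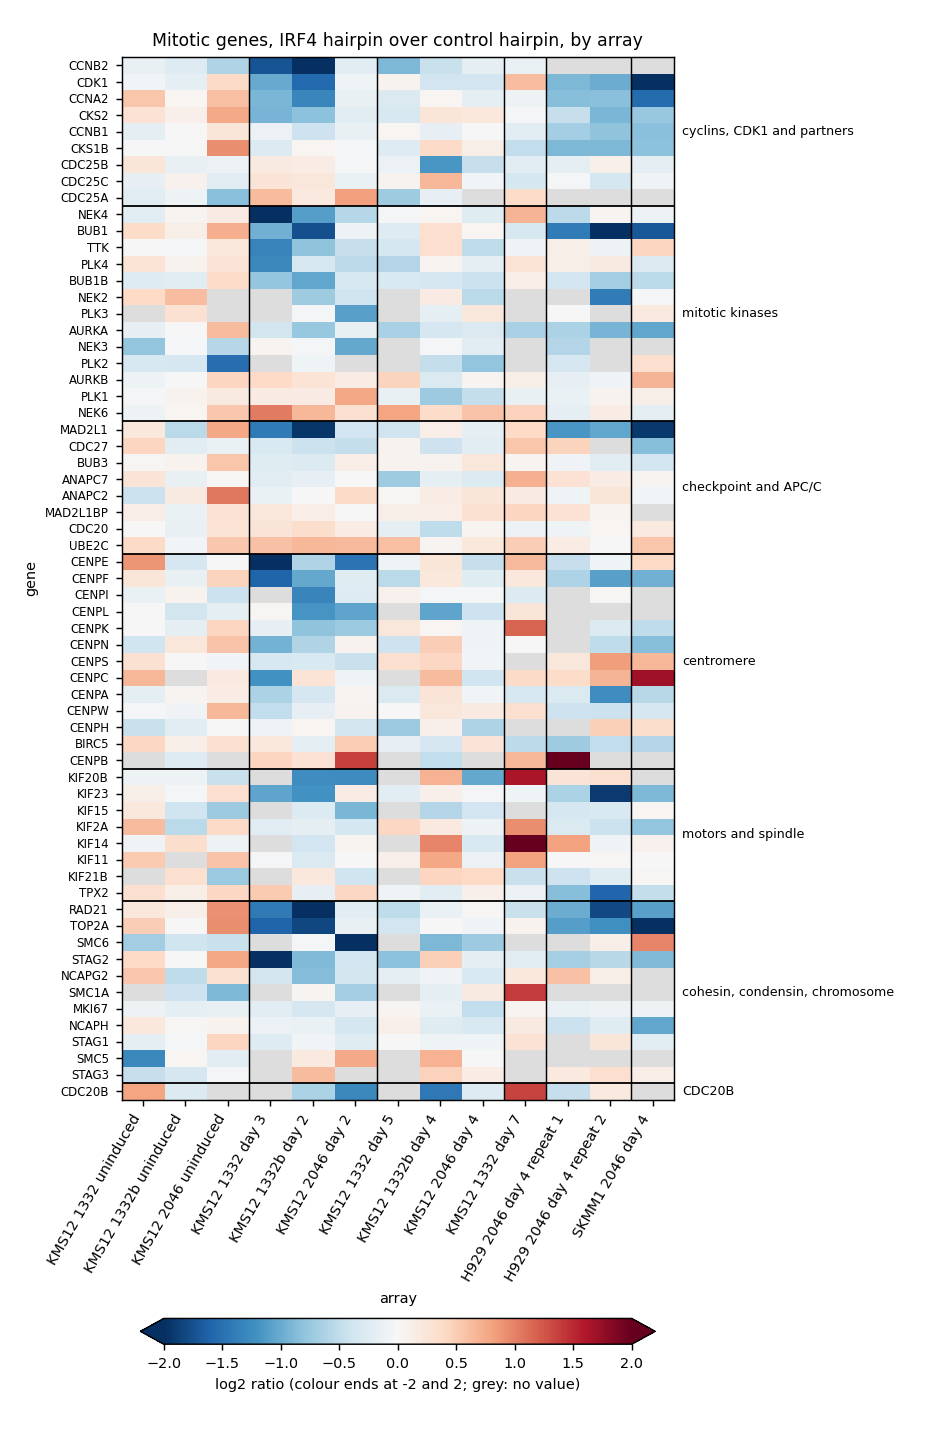
Log2 ratio, IRF4 hairpin over luciferase hairpin, of the 63 mitotic genes (rows, by role) on the 13 arrays (columns); blue is below 0, red above 0, grey is no value and colours end at -2 and 2. The blue blocks lie in KMS12 at days 2-3 of series 1332 and 1332b and in H929 and SKMM1.

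Chromosome proteins were among the members with the smallest p. TOP2A, the topoisomerase that untangles sister chromatids, had log2 ratios of 0.49, 0.01 and 0.94 on the uninduced arrays of series 1332, 1332b and 2046, and of -1.60, -1.83 and -0.14 at days 2-3. All 3 values at days 2-3 lay below all 3 uninduced ones, though the series 2046 array at day 2 stayed close to the control culture. The difference was -1.67 (SE 0.40, 3.18-fold lower, limma adjusted p = 0.0889). RAD21, the cohesin subunit cut at anaphase, went from 0.22, 0.10 and 0.91 to -1.41, -2.04 and -0.22, a difference of -1.63 (SE 0.42, limma adjusted p = 0.0901). STAG2, another cohesin subunit, went from 0.40, 0.00 and 0.78 to -2.03, -0.88 and -0.39 (difference -1.49). The groups did not overlap for either gene. The related STAG1 had a difference of -0.25, the condensin subunits NCAPG2 and NCAPH -0.64 and -0.31, and SMC6, of the SMC5/6 complex, -0.68. Its partner SMC5 stood at 0.97 and the cohesin subunit SMC1A at 0.35. SMC6, SMC5 and SMC1A each had values on 2 arrays at days 2-3. SMC6 read -0.04 in series 1332b and -2.34 in series 2046. MKI67, the proliferation marker Ki-67 that coats mitotic chromosomes, differed little, at -0.10, -0.19 and -0.15 before and -0.21, -0.33 and -0.17 after (difference -0.09). Its 7 features differed in sign, so the average of this gene hides features that stood apart. In this role group 8 of 10 tested members lay below 0, with a median of -0.48.

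Among the cyclins and CDK1 partners the A and B2 cyclins were low and cyclin B1 was not. CCNA2, cyclin A, went from 0.55, 0.04 and 0.60 to -0.92, -1.31 and -0.15, a difference of -1.19 (SE 0.29, limma adjusted p = 0.0889). Its groups did not overlap. CDK1, the mitotic kinase itself, went from -0.05, -0.18 and 0.38 to -1.01, -1.56 and -0.09 (difference -0.94), and there the series 2046 array at day 2 lay within the uninduced range. CKS2, a small CDK-binding protein, went from 0.29, 0.10 and 0.76 to -0.94, -0.82 and -0.22 (difference -1.04, SE 0.28, limma adjusted p = 0.0901), without overlap. Its paralog CKS1B went from 0.00, 0.00 and 0.93 to -0.27, 0.04 and -0.04 (difference -0.40), where only the series 2046 uninduced array stood high. CCNB2 stood at -0.15, -0.27 and -0.61 before and at -1.73, -2.0 and -0.22 after, low on 2 of 3 arrays. CCNB1, cyclin B1, stood at -0.19, 0.00 and 0.23 before and -0.12, -0.41 and -0.14 after (difference -0.24), with overlap. The CDC25 phosphatases, which activate CDK1, did not share this pattern: CDC25A differed by 0.94, CDC25C by 0.21 and CDC25B by 0.10. Of 9 tested genes in this group 6 lay below 0.

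The kinases split into low and steady members. BUB1, a checkpoint kinase at the kinetochore, went from 0.36, 0.12 and 0.73 to -0.96, -1.76 and -0.10, a difference of -1.34 (SE 0.38, limma adjusted p = 0.0935). PLK4, which starts centriole duplication, went from 0.28, 0.07 and 0.25 to -1.30, -0.32 and -0.53 (difference -0.91). TTK, the checkpoint kinase also called MPS1, went from 0.00, -0.04 and 0.20 to -1.34, -0.81 and -0.46 (difference -0.92). None of these 3 overlapped between the groups, and PLK4 and TTK were also low on the series 2046 array. BUB1B, which encodes the checkpoint protein BUBR1, differed by -0.68 and NEK2, a centrosome kinase, by -1.06, while NEK3 stood at 0.13. AURKA, the Aurora kinase of the spindle poles, went from -0.16, 0.00 and 0.63 to -0.37, -0.75 and -0.15 (difference -0.58). By contrast AURKB, its counterpart in the chromosomal passenger complex, stood at -0.10, 0.01 and 0.43 before and 0.40, 0.28 and 0.15 after (difference 0.16). PLK1 stood at -0.04, 0.07 and 0.18 before and 0.17, 0.17 and 0.78 after (difference 0.30), above 0 on every array at days 2-3. NEK6 had the highest mean ratio of this group, with 1.05, 0.66 and 0.32 at days 2-3 against -0.10, 0.03 and 0.54 before (difference 0.51, limma adjusted p = 0.265). In total, 7 of 11 tested kinases lay below 0, with a median of -0.68, and these same 7 had an unadjusted p under 0.05.

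**Figure D2:**
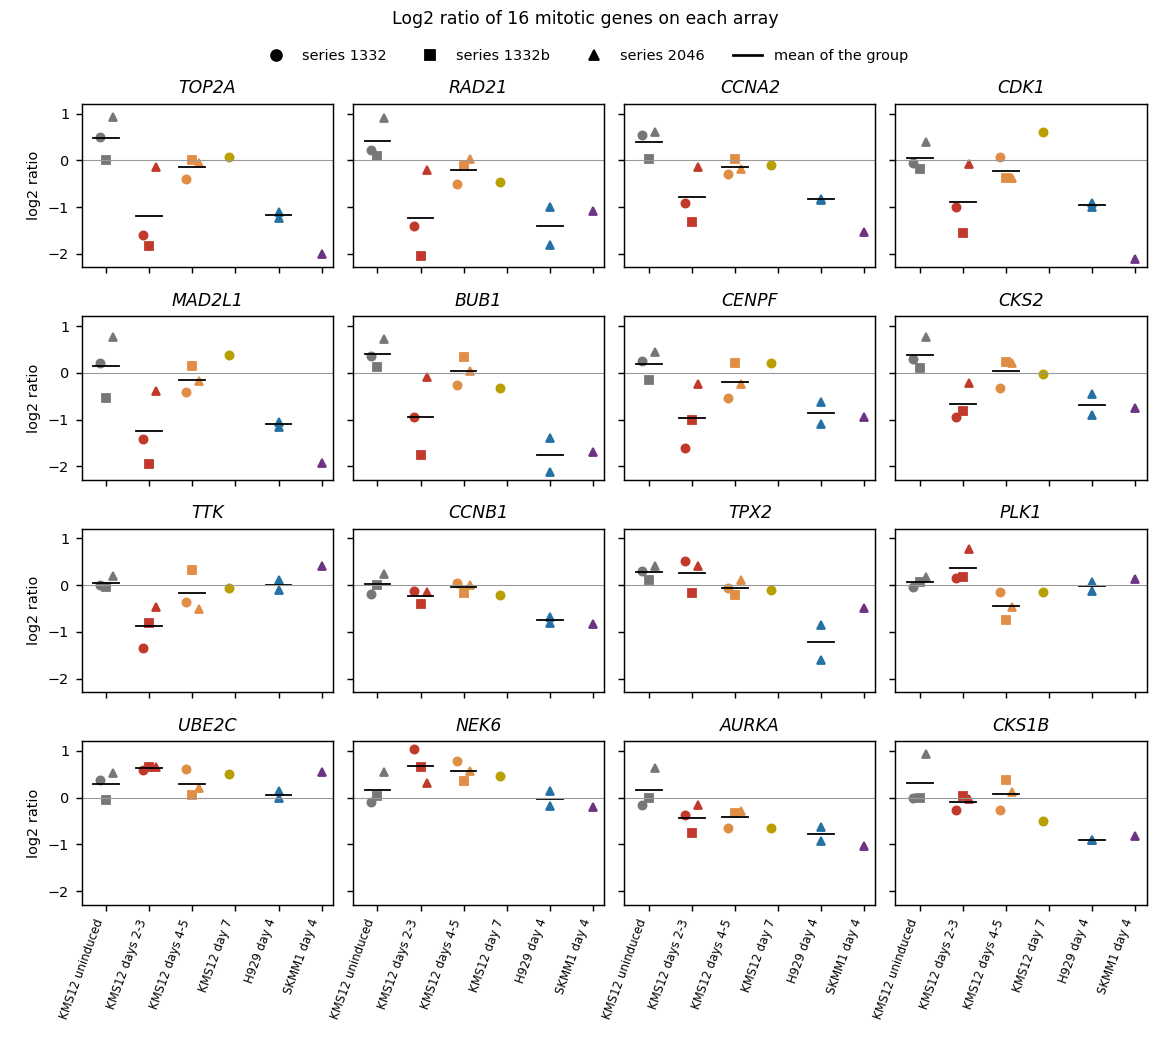
Log2 ratio of 16 mitotic genes on each array by group, with circles for series 1332, squares for 1332b, triangles for 2046 and a bar at the group mean. TOP2A, RAD21, CCNA2 and MAD2L1 lie lower at KMS12 days 2-3 than on the uninduced array of the same series in all 3 series. Their series 2046 array at days 2-3 lies nearest to 0, and these genes are low in H929 and SKMM1. TTK is low in KMS12 at days 2-3 and not in the other lines at day 4. TPX2, CCNB1 and CKS1B are low in H929 and SKMM1.

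In the checkpoint and the APC/C, MAD2L1 was low while CDC20 and UBE2C were not. MAD2L1, the checkpoint protein MAD2 that binds CDC20, went from 0.21, -0.54 and 0.77 to -1.42, -1.95 and -0.38, a difference of -1.40 (SE 0.40, limma adjusted p = 0.0959). The uninduced array of series 1332b overlapped with the days 2-3 group. CDC20, the APC/C activator, stood at -0.01, -0.14 and 0.28 before and 0.26, 0.35 and 0.15 after (difference 0.22). UBE2C, the ubiquitin-conjugating enzyme of the APC/C, stood at 0.39, -0.06 and 0.54 before and 0.59, 0.66 and 0.65 after (difference 0.34). All 3 of its arrays at days 2-3 lay above all 3 uninduced ones. The APC/C subunits ANAPC2, ANAPC7 and CDC27 differed by -0.19, -0.16 and -0.43, the checkpoint protein BUB3 by -0.34 and the MAD2 binding protein MAD2L1BP by 0.02. So 5 of 8 tested members lay below 0 with a median of -0.17, the smallest shift of the 6 role groups.

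At the centromere 11 of 12 tested members lay below 0, with a median of -0.59. CENPF, a kinetochore protein of late cell cycle, went from 0.24, -0.15 and 0.45 to -1.61, -1.02 and -0.25, a difference of -1.14 (SE 0.34, limma adjusted p = 0.104), without overlap. CENPE, the kinetochore motor, went from 0.88, -0.34 and -0.02 to -5.03, -0.60 and -1.48 (difference -2.55, SE 0.86, limma adjusted p = 0.127). Its value of -5.03 at day 3 of series 1332 is the mean of 2 features that read -2.77 and -7.28, and the other 2 CENPE features were blank on that array. NEK4, a kinase of the NEK family, had a like value of -4.45 there from features at -2.09 and -6.81. The size of these 2 differences therefore rests on single spots. The inner kinetochore proteins CENPC, CENPK, CENPN and CENPI differed by -0.78, -0.65, -0.63 and -0.63, and CENPA, the centromeric histone, by -0.31. CENPL, CENPS, CENPW and CENPH differed by -0.55, -0.44, -0.38 and 0.10. BIRC5, the passenger protein survivin, stood at 0.42, 0.12 and 0.32 before and 0.21, -0.17 and 0.51 after (difference -0.10).

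Of the motors and spindle proteins, 7 of 8 lay below 0 with a median of -0.35. KIF23, the central spindle motor of cytokinesis, went from 0.12, -0.02 and 0.34 to -1.06, -1.21 and 0.14 (difference -0.86, SE 0.39). It was more than 2-fold below control on the arrays of series 1332 and 1332b and not in series 2046. KIF20B and KIF11, the latter the motor that separates the spindle poles, differed by -1.04 and -0.65. KIF2A, KIF15, KIF14 and KIF21B differed by -0.42, -0.29, -0.23 and 0.12. TPX2, the spindle factor that activates Aurora A, stood at 0.31, 0.12 and 0.42 before and 0.52, -0.17 and 0.41 after (difference -0.03). CDC20B, which the rule took in by name and which has no role group here, differed by -1.21. CENPB, PLK2, PLK3 and STAG3 had too few values to be tested here.

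The series disagreed in how low the ratios were. At day 3 of series 1332, 13 of 50 members were more than 2-fold below control (9.71% of all genes), and at day 2 of series 1332b 14 of 63 (12.2%). At day 2 of series 2046 there were 7 of 61 (3.39%), and none of them was TOP2A, RAD21, CCNA2, BUB1 or MAD2L1. Against the uninduced array of series 2046, however, these 5 genes differed by -1.08, -1.13, -0.75, -0.83 and -1.15, and in series 1332 and 1332b each differed by more. Over all members, each series set against its own uninduced array had a member median below 0, -0.45 in 1332 (35 of 49 below 0), -0.29 in 1332b (41 of 61) and -0.43 in 2046 (45 of 57), where all genes had 0.003, 0.017 and -0.12. The uninduced array of series 2046 had a member median of 0.25, and its part in that difference was not tested. Without the series 2046 day 2 array limma called 16 of 49 members as lower (13.7% of all genes): BUB1, BUB1B, CCNA2, CCNB2, CDK1, CENPE, CENPF, CKS2, KIF23, MAD2L1, NEK4, PLK4, RAD21, STAG2, TOP2A and TTK. With all 3 KMS12 arrays of series 2046 left out it called 6 of 47 as lower (5.28%): BUB1, CCNA2, CCNB2, MAD2L1, RAD21 and TOP2A. When the ratios at days 2-3 were set against 0 instead, 14 of 61 members passed as lower (7.99%) and 2, NEK6 and UBE2C, as higher (2.47%), with 27 lower (19.2%) and 4 higher (11.8%) at an unadjusted p under 0.05. A dye effect stays in that last test.

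**Figure D3:**
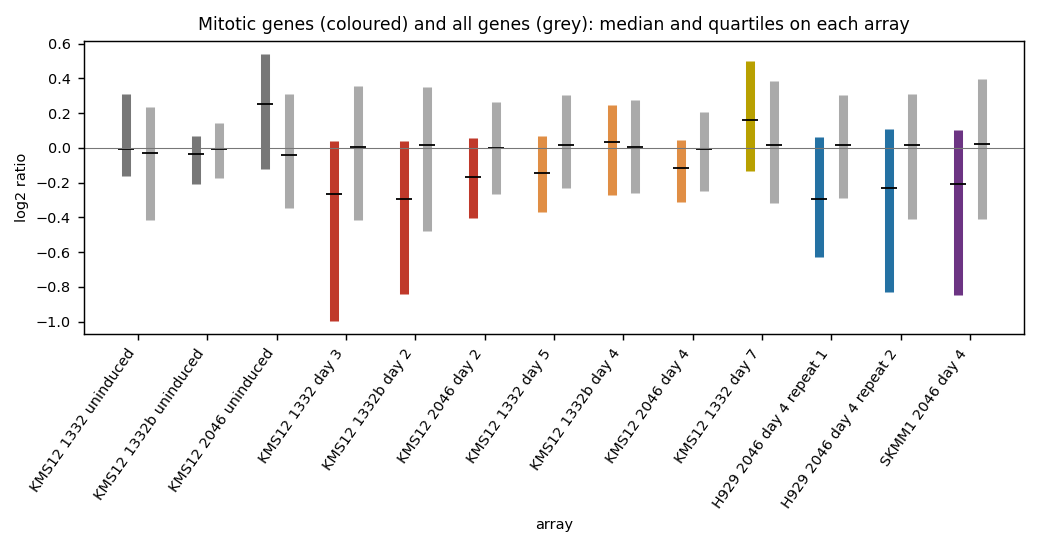
Median (black tick) and quartiles (bar) of the log2 ratio on each array, for the mitotic genes (coloured by group) and for all genes (grey). The member median is -0.26, -0.29 and -0.17 on the KMS12 arrays at days 2-3 and 0.16 at day 7, while the grey medians stay within 0.05 of 0.

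Most genes with more than 1 cDNA feature gave the same sign from each. At days 2-3 against uninduced, 25 of 34 such genes had all features on 1 side of 0. The 2 features of TOP2A differed by -1.74 and -1.59, those of RAD21 by -1.77 and -1.50, those of CCNA2 by -1.20 and -1.18 and those of BUB1 by -1.49 and -1.19. The 7 features of CENPF ran from -2.09 to -0.15, all below 0. The 9 genes whose features differed in sign included BIRC5, TPX2 and MKI67.

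**Figure D4:**
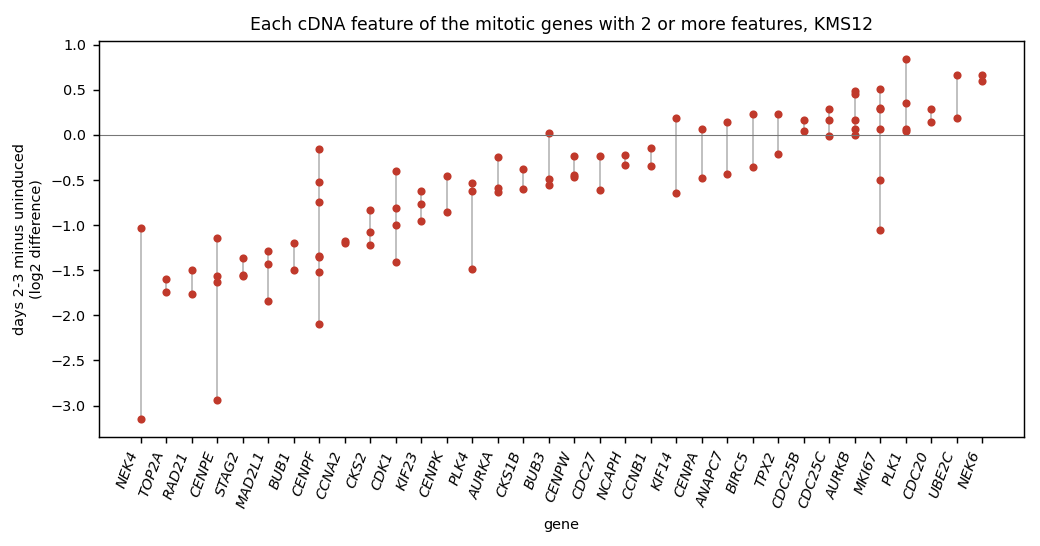
Each point is the days 2-3 minus uninduced log2 difference in KMS12 of 1 cDNA feature, for the 34 mitotic genes with 2 or more features, ordered by the gene's value. For 25 of the 34 genes all points lie on 1 side of 0.

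At days 4-5 most ratios lay closer to their starting values. Against uninduced the median member differed by -0.21, with 47 of 61 below 0, against a median of 0.03 and 47.1% below 0 among 6521 genes. Limma called 0 of 61 members and 0 of 6521 genes (0%), with a lowest adjusted p of 0.793 for a member. At an unadjusted p under 0.05, 0 members and 375 genes were found, so the members lay below the share of all genes (1.86% lower and 3.90% higher). AURKA had the smallest p, at -0.65, -0.34 and -0.28, every array below the uninduced ones (difference -0.58, SE 0.27). PLK1, at -0.15, -0.73 and -0.47, was also below every uninduced array (difference -0.52, SE 0.24), although it had been above 0 on every array at days 2-3. CDC25B stood at -0.12, -1.17 and -0.47 (difference -0.58). TOP2A stood at -0.39, 0.01 and -0.07, RAD21 at -0.50, -0.13 and 0.02, BUB1 at -0.26, 0.34 and 0.04 and MAD2L1 at -0.40, 0.14 and -0.18, with differences of -0.63, -0.61, -0.36 and -0.30. Every later array lay below every uninduced array for 8 of 45 members (7.15% of all genes) and above for 0 (4.73%), the 8 being ANAPC7, AURKA, BUB1B, CCNA2, PLK1, PLK4, RAD21 and TPX2. Against 0, 6 of 62 members were lower at an unadjusted p under 0.05 (3.52% of all genes) and 1 was higher (3.73%), and 0 passed. The marker lists had medians of -0.43 for plasma cell genes (10 of 10 below 0), 0.36 for B cell (7 of 9 above), 0.31 for T cell (6 of 7 above) and 0.58 for erythroid and stromal markers (5 of 5 above), and their part was not tested. The series were uneven, with member medians against their own uninduced array of -0.26 in 1332, -0.0007 in 1332b and -0.38 in 2046. Without the KMS12 arrays of series 2046 the median was -0.06, with 24 of 46 below 0.

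Set directly against days 2-3, most members were higher at days 4-5. This comparison shares the arrays of days 2-3 with the first, so a gene low there enters both with opposite signs. The median member differed by 0.34, with 48 of 60 above 0, and the median of 6072 genes by 0.02. Limma called 0 of 60 members and 0 of 6072 genes (0%). At an unadjusted p under 0.05, 14 members were higher and 3 lower, against 9.72% and 4.83% of all genes. MAD2L1 differed by 1.10 (SE 0.40), TOP2A by 1.04, RAD21 by 1.02 and BUB1 by 0.98, each with a limma adjusted p between 0.280 and 0.305. CENPE and NEK4, at 2.27 and 1.96, carry the single spots described above. Every array at days 4-5 lay above every array at days 2-3 for 6 of 45 members (13.3%, near the 12.1% of all genes). Every array lay below for 3 members (6.67%, against 8.97% of all genes), CDC20, CDC25B and PLK1. The 3 genes that were lower by unadjusted p were PLK1 (-0.82, SE 0.24, limma adjusted p = 0.249), CDC25A (-0.99) and CDC25B (-0.69). Without the series 2046 day 2 array, 9 of 49 members passed as higher (7.21% of all genes): BUB1, CCNA2, CCNB2, CDK1, CENPF, MAD2L1, NEK4, RAD21 and TOP2A.

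On the single array at day 7 of series 1332 the mitotic genes were not low. The member median was 0.16, with 20 of 53 below 0, and all genes had a median of 0.02 on that array. No member was more than 2-fold below control (3.14% of all genes), and 5 of 53 were more than 2-fold above (7.17%), namely CDC20B, CENPK, KIF14, KIF20B and SMC1A. TOP2A read 0.07, CDK1 0.61, MAD2L1 0.39, CENPF 0.22 and CCNA2 -0.10. AURKA at -0.65, BIRC5 at -0.52, CKS1B at -0.49 and RAD21 at -0.45 were on the low side. IRF4 was at 59.9% of control on this array, near its values at days 4-5. There is no replicate of day 7 and no test.

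In H929 at day 4 most mitotic genes had ratios below 0, and 3 of them, TPX2, BUB1 and CCNB1, passed the test against 0. Of these, BUB1 had a difference of -1.34 in KMS12 at days 2-3, CCNB1 of -0.24 and TPX2 of -0.03. The median of the 2 repeats was -0.26 over 46 tested members, with 33 below 0, against 0.02 and 48.1% below 0 among 4858 genes. Limma called 3 of 46 members as lower and 0 as higher, against 2.43% and 0.906% of all genes. At an unadjusted p under 0.05, 16 were lower (14.7%) and 1 was higher (8.11%). TPX2 was lower than control, with ratios of -0.84 and -1.59 (mean -1.22, SE 0.22, limma adjusted p = 0.0337). BUB1 was lower than control, with ratios of -1.40 and -2.13 (mean -1.77, SE 0.33, limma adjusted p = 0.0356). CCNB1 was lower than control, with ratios of -0.67 and -0.80 (mean -0.74, SE 0.17, limma adjusted p = 0.0455). Each SE rests on the spread within all groups of the fit, mostly of KMS12 arrays, and not on the 2 repeats alone. For TPX2 the 2 repeats had an SD of 0.53. Both repeats were low for each of these genes, and the dye effect stays in these means. With either repeat left out, 0 members passed, and with a stricter filter, features on 10 or more arrays and on at least 2 of 3 arrays of each KMS12 window, 7 of 44 passed (5.64% of all genes lower): AURKA, BUB1, CCNB1, CKS1B, KIF23, RAD21 and TPX2.

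In H929 12 members had an adjusted p under 0.1 as lower and 0 as higher, against 6.98% and 2.68% of all genes, and 9 of the 12 did not pass. These 9 included KIF23 at -0.63 and -1.92, RAD21 at -0.99 and -1.81, CKS1B at -0.90 and -0.89 and AURKA at -0.63 and -0.93. The KIF23 values average a feature at -0.297 and -0.265 and another at -0.972 and -3.574. The size of the H929 ratio of KIF23, here and in the other H929 results, therefore rests largely on 1 feature. TOP2A read -1.10 and -1.23, CCNA2 -0.85 and -0.83, CDK1 -0.91 and -1.0 and MAD2L1 -1.16 and -1.04. All 7 tested members of the cyclin and CDK1 group lay below 0, with a median of -0.74. The checkpoint and APC/C group had a median of 0.06 (3 of 7 below 0): CDC20 read -0.09 and 0.05, UBE2C 0.14 and -0.02 and ANAPC7 0.29 and 0.14. The genes near 0 in H929 also included PLK1 at -0.13 and 0.08, TTK at 0.12 and -0.10, PLK4 at 0.12 and 0.18, KIF11 at 0.01 and 0.02 and MKI67 at -0.14 and -0.10. The MKI67 values average features that differed in sign. Its 2 features with a value on all 13 arrays were low, at -0.511 and -0.952 and at -0.245 and -0.555. Features with values on fewer arrays included some above 0. Repeat 2 was lower than repeat 1 for several genes, with 9 of 53 members more than 2-fold below control (7.29% of all genes) against 3 of 51 (2.86%).

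The single SKMM1 array gave 8 of 51 members more than 2-fold below control (8.48% of all genes) and 1 above, CENPC at 1.70 (5.11%). CDK1 read -2.12, TOP2A -2.0, MAD2L1 -1.93, BUB1 -1.70 and CCNA2 -1.54. RAD21 at -1.08, NCAPH at -1.04 and AURKA at -1.03 completed the 8. The CDK1 value includes 1 of 4 features at -4.50, and the other 3 read -2.42, -0.90 and -0.65. CENPF read -0.95, KIF23 -0.90, CCNB1 -0.84, CKS1B -0.81, CKS2 -0.76, BIRC5 -0.58 and TPX2 -0.48. In H929 the marker lists had medians of -0.42 for plasma cell genes (6 of 10 below 0), 0.16 for B cell (7 of 9 above), 0.31 for T cell (7 of 7) and 0.06 for erythroid and stromal markers (3 of 5). On the SKMM1 array they had medians of -0.28 for plasma cell genes (6 of 10 below 0), 0.555 for B cell (2 of 9 below), 0.36 for T cell (0 of 8 below) and 0.15 for erythroid and stromal markers (1 of 5 below). Their part in the ratios of mitotic genes was not tested. SKMM1 ratios above 0 were found for AURKB (0.68), UBE2C (0.55), TTK (0.42), CDC20 (0.19) and PLK1 (0.12).

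Over the 3 arrays of H929 and SKMM1 together, 12 of 42 members lay below -0.5 on every one, against 8.36% of all genes. They were AURKA, BUB1, CCNA2, CCNB1, CDK1, CENPF, CKS1B, KIF23, MAD2L1, RAD21, STAG2 and TOP2A. When the series 1332 and 1332b arrays of KMS12 at days 2-3 were added, 9 of 38 members lay below -0.5 on all 5 arrays, against 5.08% of all genes. These 9 were BUB1, CCNA2, CDK1, CENPF, KIF23, MAD2L1, RAD21, STAG2 and TOP2A. They cover every role group, the motors and spindle proteins by KIF23 alone. The cut-off was applied to the average of a gene's features. Single features of AURKA, CENPF, KIF23 and STAG2 lay above it on H929 or SKMM1 arrays. The KIF23 feature with a value on all 13 arrays read -0.297 and -0.265 in H929, and 1 STAG2 feature read -0.25 in SKMM1. The 2 KMS12 arrays were picked with their values known, so the count over 5 arrays is a description.

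Hairpin 2046 at day 4 was used in all 3 lines, and each line entered as 1 value. The median member was -0.22 with 37 of 51 below 0, against -0.006 and 50.6% below 0 among 5134 genes. Limma called 0 of 51 members and 0 of 5134 genes (0%), and at an unadjusted p under 0.05 12 members were lower (9.19% of all genes) and 0 higher (5.94%). The KMS12 array at day 4 stood nearest to 0 of the lines for the genes with the smallest p, as shown by CDK1 at -0.38, AURKA at -0.28, CENPF at -0.24 and MAD2L1 at -0.18. CDK1 had a mean of -1.15 over the lines (SE 0.33), MAD2L1 of -1.07, BUB1 of -1.14, TOP2A of -1.07 and CCNA2 of -0.85. AURKA (-0.70), CENPF (-0.68) and BUB1B (-0.50) had smaller means and also smaller spreads. The limma adjusted p of these 8 genes lay between 0.278 and 0.283. With KMS12 left out, 11 of 51 members passed as lower (8.31% of all genes): AURKA, BUB1, CCNA2, CCNB1, CDK1, CENPF, CKS1B, KIF23, MAD2L1, RAD21 and TOP2A. That fit rests on 2 lines.

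H929 was then set against KMS12 to describe differences in particular mitotic genes. The H929 arrays shared the same hairpin and day, while each KMS12 window pooled all the hairpin series and more than 1 day. A difference can therefore not be assigned to the line rather than the hairpin. Against days 2-3 it cannot be told apart from a difference in day either. Against days 4-5, limma called 0 of 46 members, and 2 of 4758 genes were lower (0.042%). At an unadjusted p under 0.05, 9 members were lower (9.27% of all genes) and 1 was higher (5.15%). BUB1 differed by -1.81 (SE 0.43, limma adjusted p = 0.135), TPX2 by -1.16, CCNB1 by -0.70, CKS1B by -0.98 and KIF23 by -1.22. The KIF23 difference rests largely on 1 feature in H929. H929 lay below every KMS12 array of days 4-5 for 18 of 39 members (25.5% of all genes) and above for 4 (14.7%), ANAPC7, NCAPG2, PLK1 and PLK4. The window of KMS12 with IRF4 at its lowest was days 2-3, and this comparison was added with the values known. There limma called 0 of 45 members and 0 of 4444 genes (0%), and the median member differed by -0.03, with 25 of 45 below 0. At an unadjusted p under 0.05, 6 members were lower (5.60% of all genes) and 7 higher (5.49%). TPX2 differed by -1.47 (SE 0.29, limma adjusted p = 0.102), BIRC5 by -0.79 and CKS1B by -0.81. PLK4 differed by 0.86, TTK by 0.88 and CENPS by 0.89. H929 lay below all 3 KMS12 arrays for 9 of 40 members, a share of 22.5% that is near the 19.0% of all genes. These were AURKB, BIRC5, CCNB1, CDC20, CKS1B, NEK6, PLK1, TPX2 and UBE2C. H929 lay above all 3 for 10 members (25%, against 13.7% of all genes): ANAPC7, CENPC, CENPE, CENPS, KIF11, MKI67, NCAPG2, NEK4, PLK4 and TTK. For MKI67 this held for the average of its features and not for either feature with a value on all 13 arrays. No difference between H929 and these KMS12 windows in a single mitotic gene passed, which does not show that the lines were alike.

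**Figure D5:**
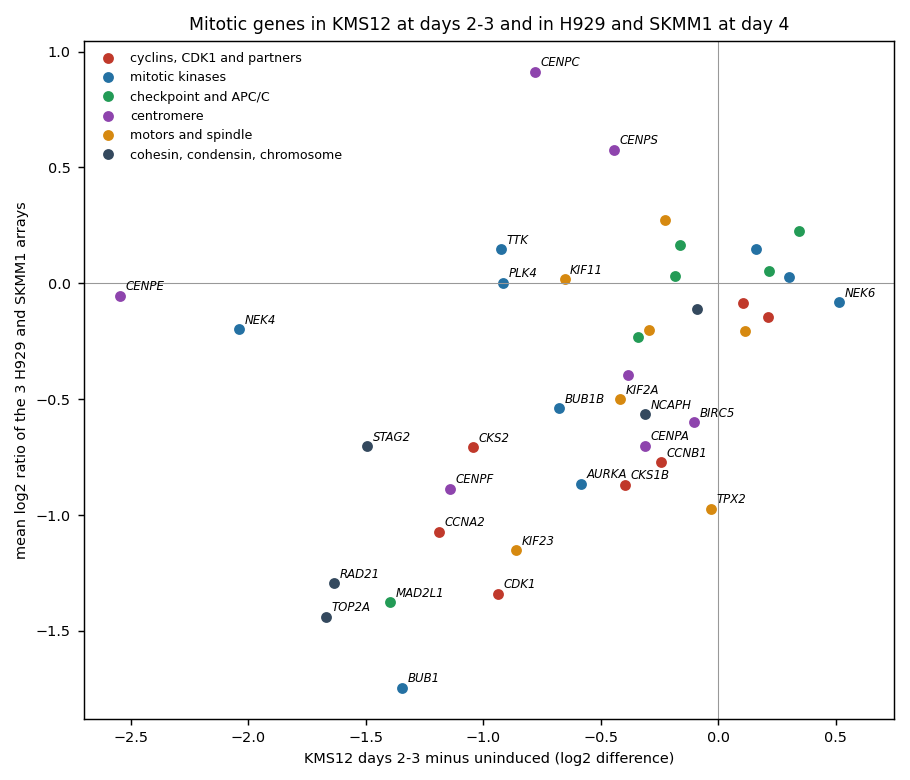
For 41 mitotic genes, the days 2-3 minus uninduced log2 difference in KMS12 (x axis) and the mean log2 ratio of the 3 H929 and SKMM1 arrays (y axis), coloured by role. Of the 41, 25 lie below 0 on both axes, with BUB1, TOP2A, RAD21, MAD2L1 and CDK1 farthest toward the lower left, while TTK and PLK4 lie low in KMS12 alone and TPX2 low in the other lines alone.

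Across the 41 members measured in both, the KMS12 difference at days 2-3 and the mean of the H929 and SKMM1 arrays had a Pearson correlation of 0.42 and a Spearman correlation of 0.49. The same over 3827 other genes gave 0.61 and 0.58. The axes share no array but share the platform and the dyes, and genes are not independent replicates, so these correlations are descriptions. Of the 41, 25 lay below 0 on both, 4 above 0 on both, 8 below in KMS12 and above in the other lines, and 4 the reverse.

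Mitotic genes outside the rule and genes of the G1/S phase also lay mostly below 0. Of 33 other mitotic genes tested at days 2-3 in KMS12, 21 lay below 0 with a median of -0.33, 9 had an unadjusted p under 0.05 as lower and 1 as higher, against 15.4% and 7.07% of all genes, and 0 passed. The smallest p values belonged to PDS5A, a cohesin regulator (-0.98), PBK, a mitotic kinase (-1.57), and CDKN3, a phosphatase that acts on CDKs (-1.27). Of 34 genes of the G1/S phase tested, 28 lay below 0 with a median of -0.38, 11 were lower and 1 higher at an unadjusted p under 0.05, against the same 15.4% and 7.07%, and 0 passed. Their smallest p values belonged to RFC1 (-1.07) and RFC4 (-0.97), of the clamp loader of DNA replication, and E2F3 (-0.83), a transcription factor of S phase entry. At days 4-5 the medians were -0.13 for the other mitotic genes (23 of 34 below 0) and -0.27 for the G1/S genes (33 of 34), beside -0.21 for the members. In H929 4 of 30 G1/S genes and 0 of 30 other mitotic genes passed as lower, against 2.43% of all genes, with medians of -0.29 and -0.05.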

How the data were processed

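Messenger RNA of 3 myeloma lines was compared on 13 two-colour cDNA arrays. The authors deposited 1 table of log ratios, taken here as log2, IRF4 hairpin (Cy5) over luciferase hairpin (Cy3), with the dyes given per the labels. Not given in the sources used here were the log base, the normalization and the background correction. The values ran from -9.78 to 7.51, and as log10 they would exceed the range of a scanner. The lowest correlation between 2 arrays was -0.33, between the uninduced KMS12 array of series 2046 and the SKMM1 array, and the direction in the labels was kept for both.

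Gene symbols came from the platform annotation (10169 features with 1 symbol, 4 with several, 5073 with none), with 10128 updated through the gene identifier and 41 kept. Features with a value on 7 or more arrays were kept, the median of the kept features was subtracted from each array, and the features of a gene were averaged per array. A feature without a symbol stood for 1 gene. Limma 3.58.1 in R 4.3.3 fitted 6 group means over all arrays (lmFit and eBayes, two-sided). A gene was tested where each group had at least 2 values, and p-values were adjusted by Benjamini-Hochberg over all genes tested, with a threshold of 0.05. Hairpin 2046 in 3 lines was fitted with 1 value per line, the H929 repeats averaged. The script was tested on simulated data. The number of arrays limits the precision.

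The mitotic genes, the gene lists and the tests were chosen with earlier results of these data known. Genes were named by rule: IRF4, the members with the smallest p in each comparison, 18 textbook members where measured, and any other member by its role. Up to 3 other mitotic genes and 3 G1/S genes with the smallest p were named too. Series numbers pair the KMS12 arrays in the comparisons with the uninduced arrays: deviations of arrays of 1 series from their group means correlated at 0.13 to 0.25 in each of these pairs, over 3432 genes. Between days 2-3 and days 4-5 they correlated at 0.36, -0.10 and -0.07, so the numbers do not pair those. Alternatives changed the filter, centring, scaling, averaging of features, reference, series block and arrays included.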

Additional observations from a re-analysis of the deposited data

How the results depend on the processing

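The member median kept its sign in all 80 alternative fits of the 6 comparisons. The count of members past the threshold moved with which arrays were used. At days 2-3 against uninduced, where 0 passed, 6 passed with the KMS12 arrays of series 2046 left out (chosen after seeing the data) and 16 when tested against 0. Leaving out 1 array at a time gave 0 to 16, the 16 without the series 2046 day 2 array. For days 4-5 against days 2-3 the count was 1 without series 2046, TOP2A as higher (2.17% of 46 members, near the 2.56% of all genes). With 1 array left out the counts were 0 to 9, the 9 again without the series 2046 day 2 array. In H929 against 0, where 3 passed, the stricter filter (features on 10 or more arrays and on 2 of 3 arrays of each KMS12 window) gave 7 and leaving out either repeat gave 0, with the lone array assumed to vary like the other groups. For hairpin 2046 in 3 lines, leaving out 1 line gave 0 to 11, the 11 without KMS12. The cause of these changes was not tested. With the culture series as replicate block, 0 members passed in any of the 3 KMS12 comparisons (lowest limma adjusted p of a member 0.0612 at days 2-3), so the pairing changed no call. Of 789 single-gene values under alternatives, 11 changed sign, mostly of genes near 0. SMC1A at days 2-3 (0.35, from 2 arrays) read -0.3095 against 0. At days 2-3 BIRC5 read 0.0018 under the stricter filter and 0.1812 against 0, and -0.2673 to 0.0747 with 1 array left out, and MKI67 read 0.0718 from 1 feature. In H929 the stricter filter gave 0.033 for PLK1, 0.0672 for CENPE (-0.28 as reported) and 0.037 for CDC20, and leaving out 1 repeat gave -0.1257 to 0.0767 for PLK1, -0.0155 to 0.1445 for UBE2C and -0.087 to 0.046 for CDC20.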
